A study of Mus musculus with 21 samples.

Results

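Integrins and laminins were measured in 6 mouse cell lines: the receptors that hold cells to their matrix and the basement membrane proteins that many of those receptors bind. The genes were taken by symbol from the array annotation, as every Itga or Itgb gene (the Itgb1bp and Itgb3bp genes, which are named for binding an integrin, were left out) and every Lama, Lamb or Lamc gene with a number. This gave 36 of the 19057 genes on the array, with 85 of its 45281 probes: 17 integrin alpha genes, 10 integrin beta genes and 9 laminin genes. One of the beta genes, Itgbl1, encodes a secreted integrin beta-like protein and not a receptor subunit, and it is kept because its symbol meets the rule. Of the 36 genes, 25 were detected on all arrays of some line and were tested, among 10449 genes tested in all: 12 alpha, 6 beta and 7 laminin genes.

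An integrin is a pair of 1 alpha and 1 beta subunit that spans the membrane, joins matrix proteins outside to the actin cytoskeleton inside, and signals in both directions. The subunit pair sets the ligand: pairs with Itga3, Itga6 or Itga7 bind laminins, Itga1 and Itga11 pair with Itgb1 to bind collagens, Itga5 with Itgb1 binds fibronectin, and Itgav with Itgb5 or Itgb8 binds vitronectin or latent TGF-beta. A laminin is a trimer of an alpha, a beta and a gamma chain that assembles into the sheet of the basement membrane. In the forebrain, neural stem cells touch such a sheet, laminin receptors made of Itga6 and Itgb1 are known from their surface, and laminin is a common coating on which they are grown.

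Total RNA was measured on 21 bead arrays (Illumina MouseWG-6 V2) in a study of fibroblasts converted to expandable neural stem cells. MEF (4 arrays) were mouse embryonic fibroblasts carrying an Oct4 reporter, called Oct4-GFP in the titles and Oct4-GiP in the source labels. The induced neural stem cell lines iNS2 (3 arrays), iNS3 (4 arrays) and iNS5 (4 arrays) carry the same reporter, and each is 1 clone derived from such fibroblasts. NS (3 arrays) were control neural stem cells, primary cells from mouse forebrain. ES (3 arrays) were control embryonic stem cells, and their source label repeats that of the fibroblasts, so the line they come from cannot be told. The labels used here name neither the conversion factors nor the strain, age or culture coating of any line. Arrays of 1 line are technical replicates by the series text, so p-values between lines measure technical spread. Separately derived lines stand behind the group of 3 clones alone.

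Values below are log2 normalised signals. A probe counted as detected (well above background) if the detection p-value of that array was under 0.01, which held for 14407 to 16021 probes per array. The dimmest such probe read between 5.29 and 5.65 on the log2 scale, depending on the array, and this level is the floor used for "at least" folds. Each tested integrin or laminin probe was read from 20 to 67 beads per array, with a median of 39, and the bead standard error had a median of 3.88% of the signal. Across genes, the correlation between 2 arrays of 1 line was never under 0.992. Of 8 fibroblast markers, 7 were detected on all MEF arrays and none on any array of NS or the clones, and all 7 neural stem cell markers were detected on every NS and clone array. All 6 pluripotency markers were detected on every ES array, so each line carried the markers of its label. Some markers were also detected outside their label. Among the pluripotency markers, Esrrb was detected on all NS, iNS2 and iNS3 arrays, and Dppa5a on all NS and iNS5 arrays. Of the neural stem cell markers, Nes was detected on all MEF and ES arrays, and Olig1, Sox2 and Sox21 on all ES arrays.

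The genes fell into a few patterns across the lines. Itga11 and Itgbl1 were bright in the fibroblasts and at background everywhere else. Itga5, Itgb1, Itgb5 and Lamb2 were brightest in the fibroblasts and dimmer, but detected, in the stem cell lines. In iNS2 and iNS3, Itga5 was detected by its brighter probe alone. Itga6 and Lama5 were bright in NS, in the clones and in ES, and Lama1, Itgb4, Itgb7, Itgae and Itga3 peaked in ES. Lamc1 was bright in every line. Of the 25 tested genes, 10 entered the tests through 1 line alone, 6 through MEF and 4 through ES. Those 10 had to differ between lines, so the counts below describe the tested genes and are no test of the family. Signals come from whole cultures, in which fewer cells of a type and less RNA per cell cannot be told apart.

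**Figure D1:**
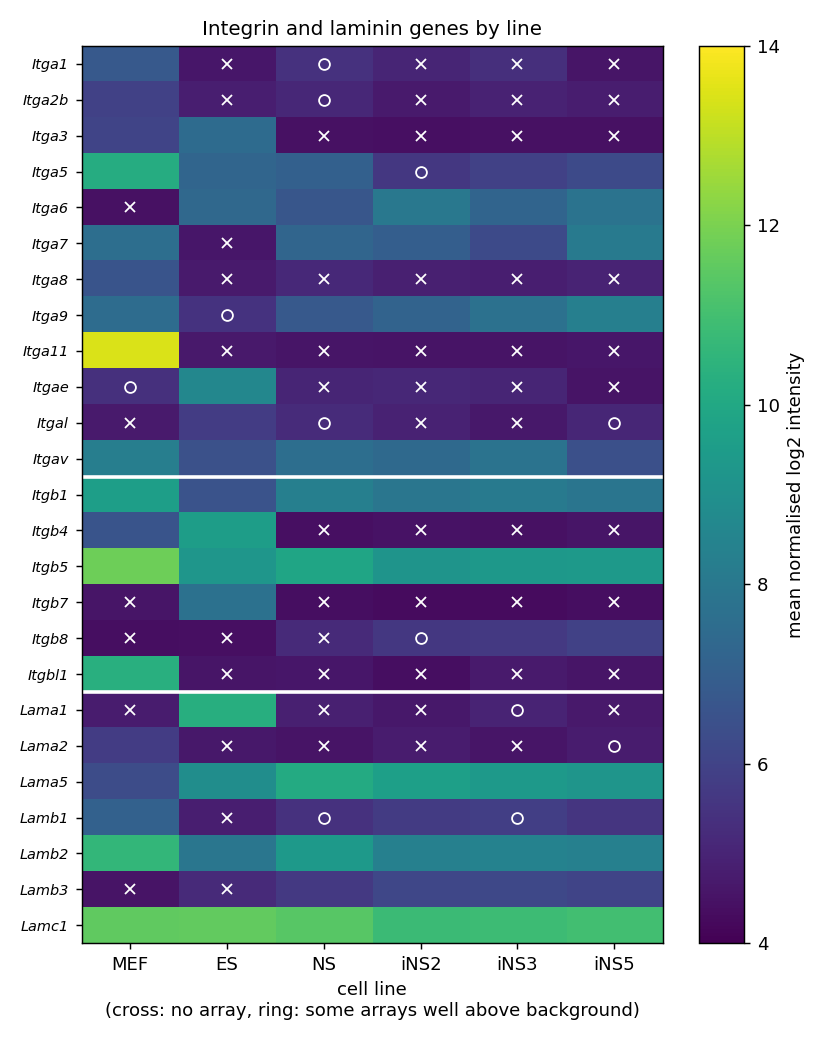
Mean log2 normalised signal (colour) of the 25 tested integrin and laminin genes (rows, to be read along a row only) in the 6 lines (columns), with a cross where no array and a ring where only some arrays of a line were above background. Itga11 and Itgbl1 stand out in MEF at 13.42 and 10.32 with crosses in every other line, Lama1 stands out in ES at 10.25, and Lama5 is brighter in every other line than in MEF.

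The first question was how the conversion moved the adhesion genes, that is, how the clones differ from the fibroblasts they came from. With the 3 clones as replicates, tested in limma against no change, 4 of the 25 genes were higher and 14 lower than in MEF, against 23.8% and 23.2% of all genes tested. The median difference was -1.10 on the log2 scale, while the median of all genes was 0.07. Against the 2-fold threshold used for single lines, iNS2 had 3 genes higher and 10 lower, where 17.3% and 18.7% of all genes were called. In iNS3, 4 were higher and 11 lower, where 17.6% and 17.9% of all genes were called. In iNS5 the counts were again 4 and 11, beside 17.9% and 19.5%. The forebrain NS line, measured against the same MEF arrays, had 2 higher and 10 lower, beside 16.5% and 17.5%. On the authors' scaled table the NS counts were 3 and 8, where 3613 of all 10449 genes were called in either direction. With median scaling they were 2 and 6, where 3337 of all 10449 genes were called. The shares of all genes were not split by direction under these scalings. With quantile normalised values, the share of genes called higher was thus near or under the background, and the share called lower was above it. The excess of lower calls is no test of the family, because 6 tested genes passed the detection filter through MEF alone. These were Itga1, Itga11, Itga2b, Itga8, Itgbl1 and Lama2, and each was called lower than MEF in the clones as a group.

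Among the alpha subunits, Itga11, which makes the collagen receptor typical of fibroblasts, differed most. It read 13.50, 13.49, 13.42 and 13.26 on the 4 MEF arrays, between 4.33 and 5.02 on the 11 clone arrays, 4.46 to 4.69 in NS and 4.61 to 4.75 in ES. No array outside MEF was above background, and the groups lay far apart. The clones lay at least 260-fold under MEF in Itga11 (log2 difference -8.86 ± 0.165 SE, limma adjusted p = 3e-04), and NS at least 255-fold. Itgbl1, the secreted beta-like protein, had the same shape, at 10.29, 10.25, 10.38 and 10.35 in MEF and 4.37 to 4.85 in the clones. It was at background on every array outside MEF, at least 30.4-fold lower in the clones (adjusted p = 0.00049).

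The 250 bases before the start sites of Itga11 and Itgbl1 are shown because these 2 genes share the fibroblast pattern. That of Itgb7 is shown for the ES pattern, and that of Lama5 because it was brighter in NS, the clones and ES than in MEF. All regions shown come from RefSeq on GRCm38.p6, written 5′ to 3′ in the direction of the gene, with motif matches in capitals. The motifs were searched on both strands: AP-1 (TGANTCA), TEAD (GGAATG), GC box (GGGCGG), SOX (ACAANG) and octamer (ATTTGCAT). The regions are chr9:62677605-62677854 on the + strand for Itga11, chr14:123659890-123660139 on the + strand for Itgbl1, chr15:102231936-102232185 on the - strand for Itgb7 and chr2:180225860-180226109 on the - strand for Lama5.
Itga11: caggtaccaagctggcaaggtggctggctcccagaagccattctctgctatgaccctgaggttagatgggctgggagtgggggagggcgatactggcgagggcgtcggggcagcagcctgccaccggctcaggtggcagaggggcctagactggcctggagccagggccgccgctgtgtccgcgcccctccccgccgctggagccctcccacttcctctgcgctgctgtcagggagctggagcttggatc
Itgbl1: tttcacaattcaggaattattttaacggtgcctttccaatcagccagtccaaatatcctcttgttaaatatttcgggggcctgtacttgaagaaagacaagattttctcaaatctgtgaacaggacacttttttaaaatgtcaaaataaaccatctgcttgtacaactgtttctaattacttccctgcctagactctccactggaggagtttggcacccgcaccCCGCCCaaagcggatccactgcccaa
Itgb7: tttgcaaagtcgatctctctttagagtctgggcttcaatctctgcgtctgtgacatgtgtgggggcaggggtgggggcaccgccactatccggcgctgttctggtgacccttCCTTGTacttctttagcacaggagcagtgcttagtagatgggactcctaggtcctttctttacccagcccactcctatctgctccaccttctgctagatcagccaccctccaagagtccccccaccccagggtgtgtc
Lama5: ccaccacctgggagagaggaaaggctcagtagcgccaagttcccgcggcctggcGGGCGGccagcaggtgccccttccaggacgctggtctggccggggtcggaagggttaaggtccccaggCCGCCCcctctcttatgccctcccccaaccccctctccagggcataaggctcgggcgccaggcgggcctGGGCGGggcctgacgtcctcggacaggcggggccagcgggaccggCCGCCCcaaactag

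The Itga11 window held none of these motifs, Itgbl1 held 1 GC box, Itgb7 held 1 SOX match and Lama5 held 4 GC boxes, and no matches overlapped. Across the 20 promoters found for 18 of the 25 tested genes, the GC box occurred in 8 and SOX in 7, beside 32.7% and 36.3% of 32851 promoters of the same length. TEAD occurred in 2 (12.6% of all), and AP-1 (6.75% of all) and the octamer (1.6% of all) in 0. A match says only that the letters are present in the window.

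Itga5, the alpha chain of the fibronectin receptor, fell from MEF to the clones, and whether it reached background there depended on the probe. It read 10.10, 10.26, 10.19 and 10.21 in MEF, while iNS2 gave 5.96, 5.17 and 5.77, iNS3 gave 5.89, 5.86, 6.04 and 5.94, and iNS5 gave 6.49, 6.23, 6.07 and 6.25. The groups did not overlap, and 10 of the 11 clone arrays were above background. The clones lay at least 18.6-fold under MEF (log2 difference -4.25 ± 0.297, adjusted p = 0.0014). NS, at 6.95 to 7.28, lay between MEF and the clones and was 8.63-fold lower than MEF (log2 difference -3.11 ± 0.138, adjusted p = 2.7e-11).

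Itga1, a collagen receptor chain, read 6.61 to 7.05 in MEF and was at background on all 11 clone arrays, at least 2.67-fold lower (adjusted p = 0.019). Itga8, a chain of RGD-binding receptors, read 6.21 to 7.04 in MEF and was at background in every other line, at least 2.32-fold lower in the clones (adjusted p = 0.0035). Itga2b, the platelet fibrinogen receptor chain, was dim even in MEF at 5.72 to 6.10, and lay at least 1.46-fold lower in the clones (adjusted p = 0.012). Without clone iNS2 neither Itga1 (adjusted p = 0.065) nor Itga2b (adjusted p = 0.071) was called. The myeloid and platelet marker list had no member detected on all arrays of any line. Itga3, a laminin receptor chain, read 5.93, 6.34, 5.95 and 5.99 in MEF and 4.34 to 4.61 in the clones. It was at background in the clones and in NS, at least 1.58-fold lower in the clones (adjusted p = 0.0034).

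The laminin receptor chain Itga6 was the alpha gene that rose. It was at background on all MEF arrays, at 4.41, 4.34, 4.77 and 4.34. Readings were 7.93, 7.93 and 8.20 in iNS2 and 7.36, 7.11, 7.57 and 6.89 in iNS3. They were 7.63, 7.88, 7.80 and 7.86 in iNS5, and 6.89, 6.22 and 6.88 in NS. Every neural array lay above every MEF array. From MEF, Itga6 rose at least 4.34-fold in the clones (log2 difference 3.22 ± 0.361, adjusted p = 0.0045) and at least 2.13-fold higher in NS (log2 difference 2.19 ± 0.163, adjusted p = 1.7e-06). The call in NS was lost with an offset of 50 (1.27, adjusted p = 0.052). A dimmer Itga6 probe moved the same way, by 1.53 in the clones (adjusted p = 0.0089), and by 1.04 in NS, which was not called against the 2-fold threshold.

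**Figure D2:**
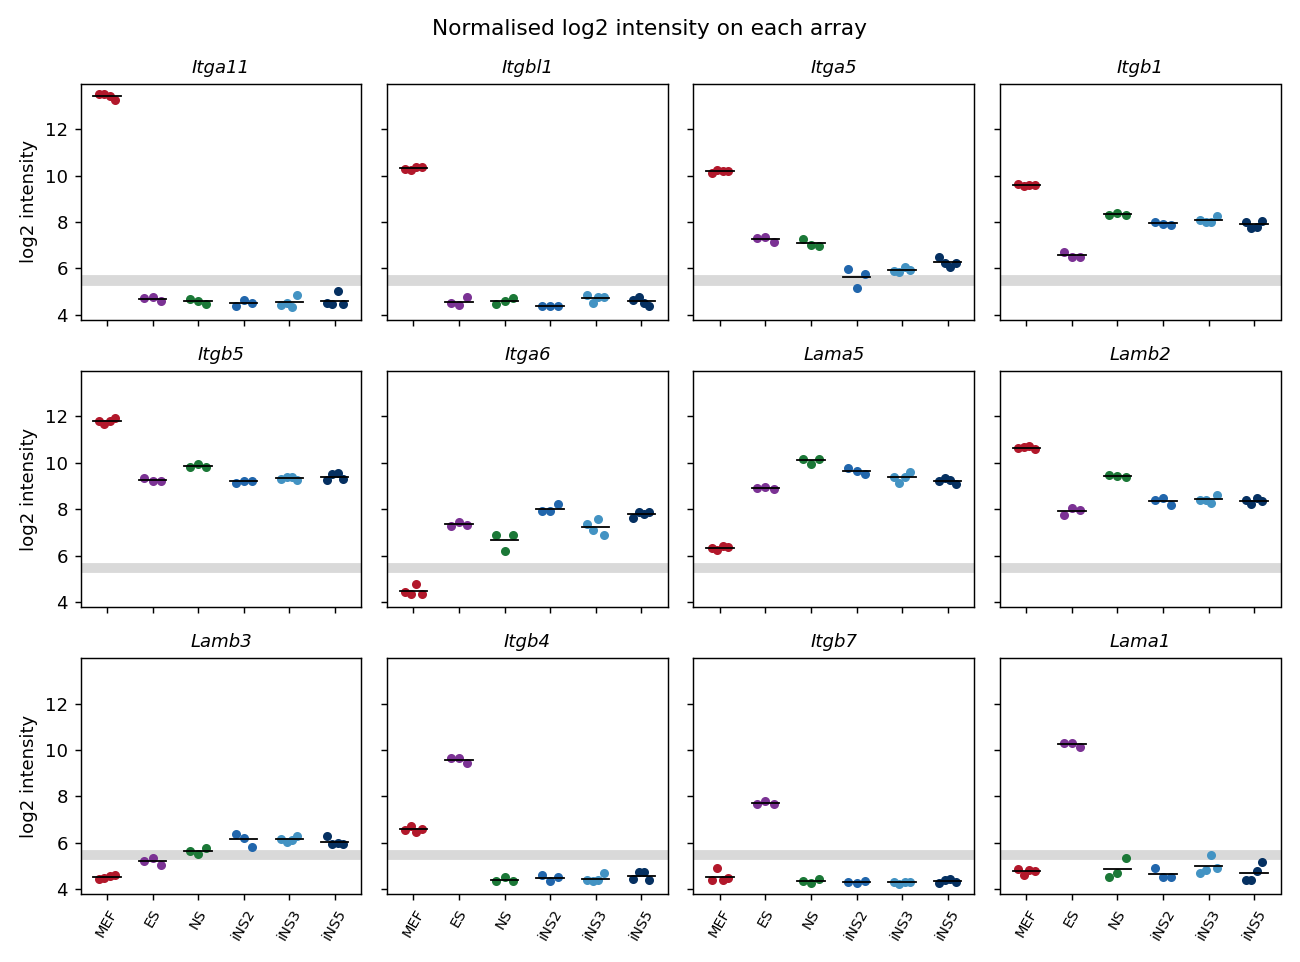
Log2 normalised signal of 12 integrin and laminin genes on each array (1 point per array, grouped by line, with a bar at the line mean and a grey band for the floors of 5.29 to 5.65). Itga11 and Itgbl1 separate the 4 MEF arrays from all others, Itga6 and Lama5 leave MEF lowest, and Itgb4, Itgb7 and Lama1 peak on the ES arrays.

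Of the beta subunits, Itgb1, the common partner of most alpha chains, was detected on every array. It read 9.66, 9.54, 9.61 and 9.59 in MEF, 7.72 to 8.25 in the clones, and 8.32, 8.38 and 8.30 in NS. The groups did not overlap with MEF. The clones were 3.10-fold lower (log2 difference -1.63 ± 0.177, adjusted p = 0.0042) and NS 2.41-fold lower (adjusted p = 0.0061), the latter lost with slide as a block (adjusted p = 0.057) and with median scaling (adjusted p = 0.37). A dimmer Itgb1 probe differed by -1.09 between clones and MEF and was not called there (adjusted p = 0.086), so the size of the Itgb1 change depends on the probe.

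Itgb5, which pairs with Itgav to bind vitronectin, read 11.81, 11.66, 11.79 and 11.95 in MEF, 9.15 to 9.57 in the clones and 9.81 to 9.94 in NS. It fell 5.62-fold in the clones (log2 difference -2.49 ± 0.181, adjusted p = 0.0016) and was 3.84-fold lower in NS. Itgb4, the partner of Itga6 in hemidesmosomes, read 6.57, 6.72, 6.45 and 6.59 in MEF and was at background on every NS and clone array. It fell at least 2.28-fold in the clones (adjusted p = 0.002) and was at least 2.23-fold lower in NS. A dimmer Itgb4 probe differed by -0.97 in the clones as a group (adjusted p = 0.018 against no change). Against the 2-fold threshold that probe was not called in NS (-1.03) or in any single clone. The neural lines thus had Itga6 signal with Itgb1 detected and Itgb4 at background.

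Itgb8, whose pair with Itgav activates TGF-beta and which is known from neural precursors, was at background in MEF at 4.33 to 4.45. The iNS2 arrays read 5.34, 5.83 and 5.69, the iNS3 arrays 5.48, 5.82, 5.64 and 5.73, and the iNS5 arrays 5.82, 6.37, 5.83 and 5.75. Of the 11 clone arrays, 10 were above background. Itgb8 rose by 1.37 ± 0.212 on the log2 scale, or at least 1.13-fold (adjusted p = 0.01). Its other probe differed by 0.41 and was not called (adjusted p = 0.51). In NS it read 5.09, 5.32 and 5.21, at background on each array, so no fold is given.

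Among the laminin chains, Lama5, the alpha chain of laminins found in most adult basement membranes and in pluripotent cells, rose most. It read 6.34, 6.23, 6.41 and 6.38 in MEF. The NS arrays gave 10.17, 9.96 and 10.17 and the iNS2 arrays 9.75, 9.62 and 9.51. The iNS3 arrays gave 9.40, 9.14, 9.38 and 9.62, and the iNS5 arrays 9.21, 9.33, 9.27 and 9.09. All neural arrays lay well above MEF, and NS lay above every clone array. From MEF, Lama5 rose 8.42-fold in the clones (log2 difference 3.07 ± 0.228, adjusted p = 0.0017) and 13.5-fold higher in NS (log2 difference 3.76 ± 0.0941, adjusted p = 7.2e-16).

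Lamb3, known from the epithelial laminin that anchors skin, was at background in MEF at 4.45 to 4.63 and dim but detected on all NS and clone arrays. It read 6.38, 6.21 and 5.84 in iNS2, 6.02 to 6.30 in iNS3, 5.94 to 6.30 in iNS5, and 5.53 to 5.76 in NS. It rose by 1.58 ± 0.165 on the log2 scale in the clones, at least 1.47-fold (adjusted p = 0.0038). The clone call is against no change, and it was lost against a 2-fold change (adjusted p = 0.06). In NS, Lamb3 was at least 1.06-fold higher. This was not called against the 2-fold threshold, but it was against no change (log2 difference 1.11, adjusted p = 3.5e-08). Of 5 epithelial markers, among them Cdh1, Krt8 and Cldn4, none was detected on all arrays of NS or any clone.

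The other chains fell or stayed level. Lamb2, a beta chain of nerve and muscle laminins, read 10.62, 10.67, 10.70 and 10.58 in MEF, 8.20 to 8.61 in the clones, and 9.47, 9.43 and 9.38 in NS. The 3 groups did not overlap. Lamb2 fell 4.78-fold in the clones (log2 difference -2.26 ± 0.161, adjusted p = 0.0015) and was 2.32-fold lower in NS (adjusted p = 0.033). The call in NS was lost with slide as a block (adjusted p = 0.33), median scaling (0.36), an offset of 50 (0.054) or no detection filter (0.069). It was also lost without MEF array 2 (0.063), MEF array 3 (0.075), NS array 2 (0.068) or NS array 3 (0.099). Lama2, the muscle and nerve laminin alpha chain, read 5.60 to 6.01 in MEF and was detected on 1 of the 11 clone arrays, at least 1.32-fold lower (adjusted p = 0.013), a call lost without iNS2 (adjusted p = 0.067). Lamc1, the gamma chain shared by most laminins, read 11.54 to 11.64 in MEF, 10.75 to 11.13 in the clones and 11.37 to 11.42 in NS. The clones lay 1.61-fold under MEF (log2 difference -0.68 ± 0.175, adjusted p = 0.037 against no change). NS lay 1.13-fold under MEF, not called against the 2-fold threshold but called against no change (adjusted p = 0.014). The Lamc1 call in the clones was lost without iNS2 (adjusted p = 0.17), without iNS3 (adjusted p = 0.077) or with median scaling (adjusted p = 0.11).

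Lamb1, the beta chain of early embryonic laminins, was uneven within MEF at 6.72, 6.84, 6.92 and 7.90 (SD 0.54, n = 4). The high value came from MEF array 4, which lay on slide 4, while the other 3 lay on slide 1. The iNS3 array on slide 4 was in turn low, at 5.07, beside 6.14, 6.08 and 6.09 on slide 2. The clones lay at least 2.54-fold under MEF in Lamb1 (log2 difference -1.38, adjusted p = 0.0081), with 10 of 11 clone arrays above background, a call that without iNS2 reached the threshold itself (adjusted p = 0.05) and no longer passed. In NS it was at least 2.86-fold lower (adjusted p = 0.034), a call lost without MEF array 4 (0.14), NS array 2 (0.2) or NS array 3 (0.054). That call was also lost on the authors' scaled table (0.057), with median scaling (0.072), an offset of 50 (0.62) or no detection filter (0.058). Within slide 4 the Lamb1 difference from MEF was -2.83 in iNS3 and -2.56 in iNS5. Each of these sets 1 array against MEF array 4, the high one. Over all arrays the differences were -1.248 in iNS3, -1.535 in iNS5 and -1.358 in iNS2, not called against the 2-fold threshold.

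**Figure D3:**
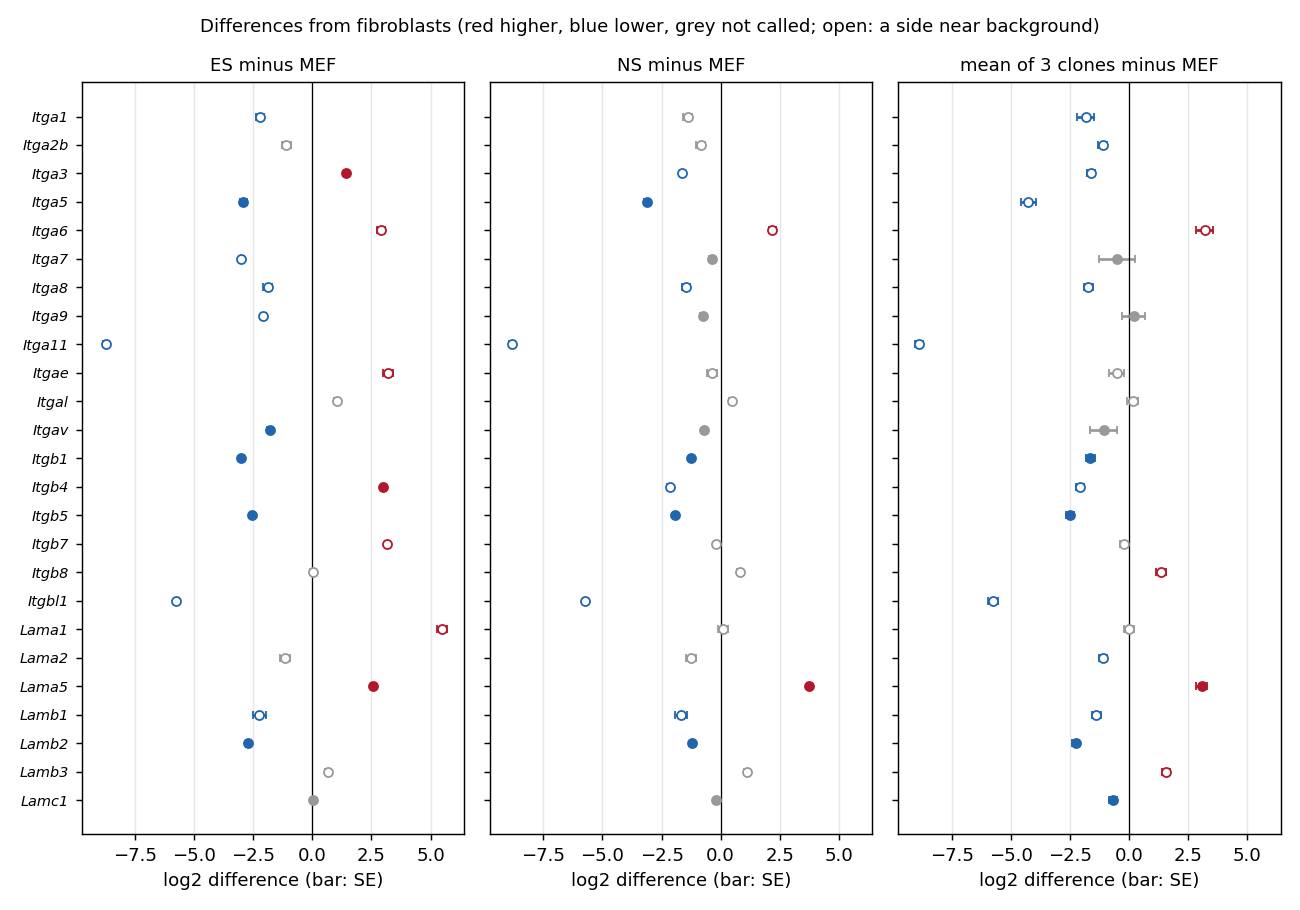
Log2 differences from MEF of the 25 tested genes in ES, NS and the mean of the 3 clones (1 panel each), with bars for the standard error, called genes in red (higher) or blue (lower), others in grey, and open points where a side was at or partly at background. Calls are against a 2-fold change for ES and NS, and against no change for the clones. Itga11, Itgbl1, Itga5, Itgb1, Itgb5 and Lamb2 lie to the left in all 3 panels, Lama5 and Itga6 to the right in all 3, and Itgb4 is to the right in ES and to the left in the others.

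The next question was whether the converted clones differ from forebrain neural stem cells. As a group, the clones had 0 of the 25 genes called higher and 0 called lower than NS in limma, where 0.0191% and 0.0383% of all genes were called. At an unadjusted p under 0.05, 7 of the 25 genes passed, while 5.81% of all genes tested did. These 7 were Itga5, Itga6, Itgb5, Lama5, Lamb2, Lamb3 and Lamc1, and the lowest adjusted p among them was 0.38. The comparison has 2 residual degrees of freedom and a single NS line, so a missing call does not show that the levels are alike.

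Line by line against the 2-fold threshold, iNS2 had 0 genes higher and 0 lower than NS, beside 0.746% and 1.57% of all genes. The counts were again 0 and 0 for iNS3, beside 0.947% and 1.29%. In iNS5, 1 gene was higher and 0 lower, beside 1.64% and 1.59%. That gene was Itga9, a receptor chain for tenascin and other ligands, at 8.27, 8.24, 8.27 and 8.44 in iNS5 against 6.64, 6.93 and 6.79 in NS. The arrays did not overlap, and the difference was 2.86-fold (log2 difference 1.52 ± 0.110, adjusted p = 0.0033). With slide as a block, or within slide 4, it was 1.48 and no longer called (adjusted p = 0.23). Slide 4 held 1 iNS5 array, which was assumed there to vary like the other lines. A dimmer Itga9 probe differed by 0.98 and was not called.

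Several genes that were not called against the 2-fold threshold still sat on 1 side of NS in every clone. Lamb2 differed from NS by -1.06 ± 0.092 in iNS2, -1.0 ± 0.086 in iNS3 and -1.06 ± 0.086 in iNS5, close to the 2-fold threshold of the test. Lama5 differed by -0.47, -0.71 and -0.87 in the same order, and Lamc1 by -0.57, -0.53 and -0.40. Itga5 differed by -1.45, -1.14 and -0.82, and without iNS2 array 1 it was called in iNS2 (-1.61, adjusted p = 0.015). Itga6 had the opposite sign, with differences of 1.36, 0.57 and 1.13. With all arrays none of these was called against the 2-fold threshold. Against no change in limma, each was called in every clone, with the highest adjusted p at 0.0069 (Itga6 in iNS3). That test measures technical spread, and it called 3589 (iNS2), 4965 (iNS3) and 5005 (iNS5) of all 10449 genes. All these differences share the 3 NS arrays.

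**Figure D4:**
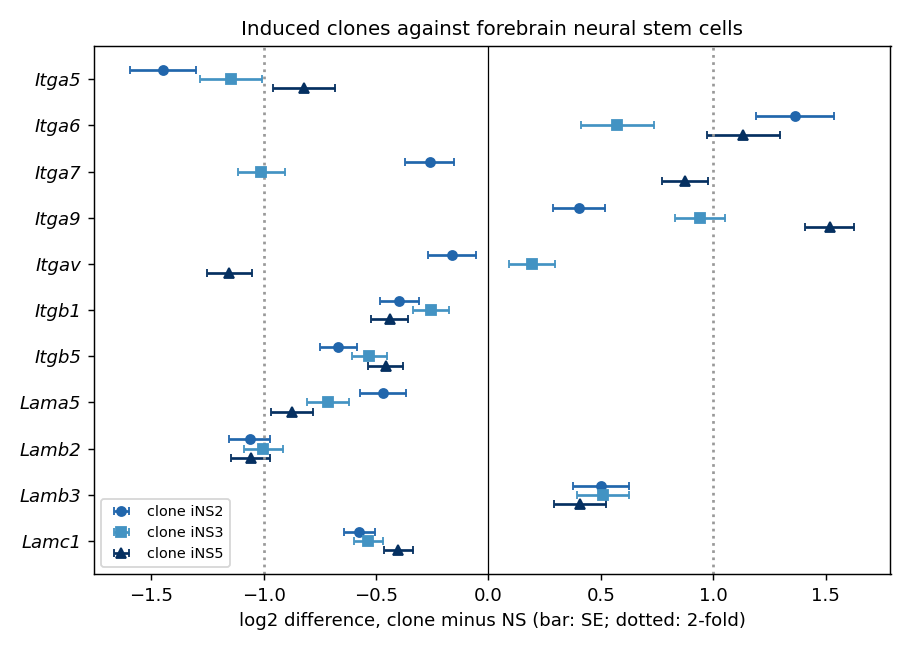
Log2 difference of each clone from the forebrain NS line for 11 integrin and laminin genes, with bars for the standard error and dotted lines at a 2-fold difference. Lamb2 sits near -1 in all 3 clones, whereas Itga7 and Itgav lie apart between clones.

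Between clones, few of these genes were called against the 2-fold threshold. Itga1, Itga11, Itga2b, Itga3, Itga8, Itgae, Itgb4, Itgb7 and Itgbl1 were at background on all 11 clone arrays. For these genes a difference between clones could not be seen. No gene was called between iNS2 and iNS3, where 0.345% of all genes were called higher and 0.603% lower, or between iNS2 and iNS5, where the shares were 0.622% and 1.42%. Between iNS3 and iNS5, 1 gene was higher and 1 lower in iNS3, beside 1.64% and 2.23% of all genes. The lower one was Itga7, a laminin receptor chain best known from muscle. It read 6.20, 6.38, 6.32 and 6.05 in iNS3, 8.15, 8.15, 8.22 and 7.96 in iNS5, and 7.11, 7.07 and 6.77 in iNS2. The clones did not overlap, and NS at 7.17 to 7.37 and MEF at 7.43 to 7.71 lay between iNS3 and iNS5. Itga7 was 3.69-fold lower in iNS3 than in iNS5 (log2 difference -1.88 ± 0.0963, adjusted p = 1.1e-06).

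The gene higher in iNS3 was Itgav, the alpha chain of vitronectin receptors. It read 7.78, 7.89, 7.66 and 7.84 in iNS3 and 6.41, 6.43, 6.42 and 6.52 in iNS5, a 2.54-fold difference (log2 difference 1.35 ± 0.0932, adjusted p = 0.022). A second Itgav probe went the other way, at -0.28, and was not called, so the clone difference rests on 1 probe. The call was lost with slide as a block (adjusted p = 0.74) and without iNS3 array 2 (0.087), iNS3 array 4 (0.066), iNS5 array 1 (0.062), iNS5 array 2 (0.059) or iNS5 array 3 (0.064). Against MEF, at 8.18 to 8.43, Itgav was lower in iNS5 (3.58-fold, adjusted p = 8.5e-08) and differed by -0.50 in iNS3 and -0.85 in iNS2, neither called. The second probe gave another order, -1.26 in iNS3 (called, adjusted p = 0.019), -0.98 in iNS5 and -0.78 in iNS2 (neither called), so which clone lay below MEF also depends on the probe.

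The embryonic stem cells had their own set. Compared with MEF, 7 of the 25 genes were higher and 12 lower in ES, where 22% and 22.8% of all genes were called. The median difference was -1.15, and that of all genes 0.06. Between NS and ES, 4 genes were higher and 5 lower in NS, beside 16.6% and 15.2% of all genes. ES arrays shared no slide with MEF or NS arrays, and iNS5 alone linked their slides. With slide as a block, 18 of the 19 calls between ES and MEF stayed and 8 of the 9 between NS and ES.

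Lama1, the alpha chain of the first laminin of the embryo, had the widest range of line means among the laminins. It read 10.31, 10.30 and 10.14 in ES, 4.63 to 4.88 in MEF and 4.52 to 5.37 in NS, and was above background on 1 of the 11 clone arrays. No array of another line came near those of ES. Lama1 was at least 25.7-fold higher than in MEF (log2 difference 5.47 ± 0.207, adjusted p = 8e-14) and at least 28.4-fold higher than in NS. Lamb1, its usual partner in that laminin, was at background on all ES arrays, while Lamc1 read 11.60, 11.64 and 11.51 in ES, overlapping MEF. In a list of parietal endoderm markers, Dab2 and Gata6 were detected on all ES arrays, and the summed linear signal of the list was at most 251 in ES against 2590 to 2780 in MEF.

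Itgb4, the hemidesmosome beta chain, read 9.68, 9.64 and 9.42 in ES, above all other arrays, and was 7.99-fold higher than in MEF (log2 difference 3.00 ± 0.104, adjusted p = 5.1e-13) and at least 17.9-fold higher than in NS. Itga6 in ES read 7.29, 7.46 and 7.34, at least 3.47-fold above MEF (adjusted p = 1.5e-09). Itga3, at 7.31, 7.77 and 7.38, was 2.71-fold above MEF (adjusted p = 0.00086, but 0.12 with slide as a block and 0.31 with an offset of 50) and at least 4.19-fold above NS. Lama5, at 8.93, 8.97 and 8.86, was 5.97-fold above MEF and differed from NS by a log2 difference of 1.18 towards NS, which was not called. The epithelial marker list moved with these genes: 4 of its 5 members were detected on all ES arrays, with a summed linear signal of 5380 to 5640 in ES and 114 to 153 elsewhere. Its part in these differences was not tested.

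Itgb7 and Itgae, which pair on intraepithelial lymphocytes, were both seen in ES. Itgb7 read 7.69, 7.82 and 7.67 in ES and was at background on every other array, at least 4.47-fold lower in MEF. Itgae read 8.55, 8.57 and 8.72 in ES, was detected on 2 of the 4 MEF arrays and on none of NS or the clones, and was at least 7.69-fold higher in ES than in MEF. A second Itgae probe differed by 3.46 in the same direction (adjusted p = 1.1e-12). Itgal, the alpha chain of a leukocyte integrin, was dim but detected on all ES arrays at 5.89, 5.81 and 5.62, and its difference from MEF (log2 1.04) was not called. Its beta partner Itgb2 was at background on every array, and no member of the myeloid and platelet list was detected on any ES array.

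The matrix receptors of fibroblasts were low in ES too. Itgb1 read 6.70, 6.50 and 6.48, 8.21-fold below MEF (log2 difference -3.04 ± 0.0806, adjusted p = 6.2e-15) and 3.41-fold below NS. The dimmer Itgb1 probe was also lower than in MEF (log2 difference -2.13, adjusted p = 6.4e-06), but between NS and ES it differed by 0.56, which was not called. Itga7 was at background in ES at 4.53, 4.80 and 4.53, at least 4.61-fold below MEF and at least 3.56-fold below NS. Itgav, at 6.54, 6.24 and 6.68, was 3.48-fold below MEF. Itga9 was above background on 1 of the 3 ES arrays and at least 3.89-fold below MEF, while its other probe differed by -0.59 and was not called. Itga5 was 7.59-fold, Itgb5 5.85-fold and Lamb2 6.53-fold below MEF, and Lamb1 at least 3.21-fold. Of 8 fibroblast markers, Thy1 was detected on all ES arrays and 6 on none.

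The 11 remaining genes were not tested, because no probe of theirs was above background on every array of a line. They were Itga2, Itga4, Itgad, Itgam, Itgax, Itgb2, Itgb2l, Itgb3, Itgb6, Lama4 and Lamc3. Itga4 had 1 probe above background on 2 MEF arrays, Itgad 1 probe on 1 array and Lama4 2 probes on 1 array each. The other 8 genes, the leukocyte chains Itgam, Itgax and Itgb2 among them, were above background on 0 arrays. Such probes were not detectable in these cultures at the array's background, which does not show that the genes were silent.

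Genes that work with integrins and laminins were taken from lists of ligands, basement membrane partners, other laminin receptors, adhesion plaque proteins and tetraspanins. The percentages of all genes called, given above for each comparison, apply to these counts as well. Clone calls are against no change, while NS and ES calls are against a 2-fold change. Counts for the clones therefore cannot be set directly against those for NS or ES. In the adhesion plaque and activator list, 21 of 32 genes were tested, and 11 were lower and 0 higher in the clones than in MEF. NS had 10 lower and 0 higher, and ES also 10 lower and 0 higher. The actin crosslinker Actn1 was 18.7-fold lower in the clones (adjusted p = 0.00084), 29.5-fold lower in NS and 2.44-fold lower in ES. Zyx, a plaque protein that responds to tension, was 6.38-fold lower in the clones and 49.3-fold lower in ES. Parva, which links integrin-linked kinase to actin, was 5.39-fold lower in the clones and 44.7-fold lower in ES. Tns1, a tensin that ties integrin tails to actin, was detected on 9 of the 11 clone arrays and lay at least 10.6-fold under MEF there (adjusted p = 0.00098).

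Of 15 tested integrin ligands other than laminins, 9 were lower and 2 higher in the clones than in MEF, 10 and 1 in NS, and 8 and 2 in ES. Thbs2, a matricellular protein, was at background on all clone arrays and at least 710-fold lower (adjusted p = 3e-04). Tgfbi, a matrix ligand of several integrins, was detected on 2 of the 11 clone arrays and was at least 52.5-fold lower. Tnc, the tenascin that Itga9 and Itgav receptors bind, stayed detected in the neural lines, 5.11-fold lower in the clones and 11.2-fold lower in NS, and was at background in ES, at least 806-fold lower. Vcam1, a cell surface ligand of Itga4 and Itga9 receptors, was 8.37-fold lower in the clones and 22.5-fold lower in NS.

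Of 12 tested basement membrane partners, 7 were lower and 1 higher in the clones, 6 and 2 in NS, and 8 and 2 in ES. Nid1, which bridges laminin to collagen IV, was detected on 4 of the 11 clone arrays and at least 67.2-fold lower there than in MEF (adjusted p = 0.0034). The collagen IV chain Col4a2 was 78.3-fold lower in the clones, 62.8-fold lower in NS and 46.3-fold lower in ES. The gene that rose in the clones was Smoc1, a secreted calcium-binding protein of basement membranes, 59.8-fold higher in the clones (adjusted p = 0.00067) and 47.8-fold higher in NS. A second collagen IV chain, Col4a5, was 3.55-fold lower in the clones and at background in ES, at least 48.5-fold lower.

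Among 6 tested laminin receptors other than integrins, Dag1, the dystroglycan that binds laminin alpha chains, rose 3.02-fold from MEF to the clones (adjusted p = 0.0075). In NS it was 2.30-fold higher, which was not called against the 2-fold threshold used there. Its neighbour in the dystrophin complex, Sgcb, was 2.46-fold higher in the clones and 2.58-fold higher in NS. The syndecan Sdc1 fell at least 7.78-fold in the clones, with 5 of 11 arrays above background. Another syndecan, Sdc2, was 9.48-fold lower in ES, and in the clones it was 2.52-fold lower, which was not called (adjusted p = 0.1). In all, 2 of the 6 were higher and 1 lower in the clones, 1 and 1 in NS, and 0 and 3 in ES. Of 10 tested tetraspanins and partners, 6 were lower and 0 higher in the clones, 3 and 1 in NS, and 6 and 1 in ES. The galectin Lgals3 was at least 106-fold and the integrin-associated protein Cd47 8.22-fold lower in the clones. The tetraspanin Cd82 was detected on 7 of the 11 clone arrays and lay at least 9.01-fold under MEF there (adjusted p = 0.035). A second galectin, Lgals1, was 1.93-fold lower in the clones (adjusted p = 0.019) and 13.6-fold lower in ES. Against NS, no gene of the 5 lists was called in the clones as a group. Single clones against the 2-fold threshold gave a few calls. Of the basement membrane partners, 1 was lower in each of iNS2, iNS3 and iNS5. Of the tetraspanins and partners, 1 was lower in iNS2 and 1 in iNS3. Of the ligands, Vcam1 was 4.12-fold higher in iNS5 (limma adjusted p = 6.2e-08). The lists had no other call against NS.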

How the data were processed

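Per the file headers, the deposited scanner table holds each probe's mean bead intensity, bead count and bead standard error, with a detection p-value. The authors' scaled intensity table, also deposited, proved linear in the scanner signal of each array (largest residual 0.1148). It is background-subtracted with one factor per array, column medians of 6.7 to 8.3 and a column mean of 379.2, and the settings of its background step are unknown. GenomeStudio is named in the submitters' processing notes, with no version in the sources used here. Of the 45281 probes, 34885 had 1 gene symbol, 18 had several and 10378 had none. A match of 34807 probes to the mouse annotation by gene ID changed 0 symbols.

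In limma 3.58.1 (R 4.3.3), neqc with an offset of 16 gave quantile normalised log2 values. Probes with 1 symbol, detected at p-value under 0.01 on every array of some line, were kept (15972), and the brightest stood for its gene. Lines were compared by treat against a 2-fold change in 1 fit of all arrays (15 residual degrees of freedom). The 3 clones as a group were compared by eBayes against no change in a fit of line means (2 residual degrees of freedom), where the single line opposite was assumed to vary like the clones. Tests were two-sided, with calls at an adjusted p under 0.05 (Benjamini-Hochberg over 10449 genes). The number of arrays and clones limits the precision. An "at least" fold sets each array of the dim side at no less than its floor. The fits were tested on simulated data.

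Slide numbers stand for array codes. MEF had 3 arrays on slide 1, iNS2 and 3 iNS3 arrays were on slide 2, ES and 3 iNS5 arrays on slide 3, and NS with 1 array each of MEF, iNS3 and iNS5 on slide 4. Replicates were numbered in accession order. Alternatives covered the scaling, offset, detection filter, test, slide, and each array or clone left out. All integrin and laminin genes were accounted for, and the 4 genes of widest range over the lines were named per companion list. Genes and lists were chosen with earlier results of these data known. Plots used matplotlib 3.10.9 and Python 3.11.15.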

Additional observations from a re-analysis of the deposited data

Results flagged for a closer look

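In 4 of the 43 groups of 4 arrays examined, 1 array stood apart from the other 3 by more than Dixon's 95% limit, where chance gives about 1 in 20. Itga3 read 6.34 on MEF array 2 and 5.93 to 5.99 on the other MEF arrays. Itgb8 read 6.37 on iNS5 array 2 and 5.75 to 5.84 on the others. Itga9 read 8.44 and Itgav 6.52 on iNS5 array 4, against 8.24 to 8.27 and 6.41 to 6.43 on the other iNS5 arrays. Clones iNS3 and iNS5 differed beyond 2-fold in Itga7, by -1.88 on the log2 scale, and in Itgav, by 1.35 (iNS3 minus iNS5), tested in limma as the pair itself.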

How the results depend on the processing

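Across 5975 values of single genes under the alternatives, 1826 of which were called as reported, 1725 stayed called, 101 were lost, 120 others were gained and 0 reversed. Alternatives that changed only the test kept each difference as it was, so they could not reverse a sign. Where every passing probe was tested, the value was still that of the brightest. Second probes were thus not counted, and that of Itgav between iNS3 and iNS5 had the opposite sign (-0.28 against 1.35). Testing against no change in place of 2-fold moved the number of the 25 genes called from 0 to 6 (iNS2 and iNS3), 0 to 10 (iNS2 and iNS5), 2 to 9 (iNS3 and iNS5), 0 to 10 (iNS2 and NS), 0 to 12 (iNS3 and NS), 1 to 13 (iNS5 and NS), 13 to 22 (iNS2 and MEF), 15 to 24 (iNS5 and MEF), 12 to 22 (NS and MEF) and 9 to 18 (NS and ES). The same choice moved the count over all 10449 genes too. Between clones it went from 99 to 3823 (iNS2 and iNS3), 213 to 4548 (iNS2 and iNS5) and 404 to 6229 (iNS3 and iNS5). Against NS it went from 242 to 3589 (iNS2), 234 to 4965 (iNS3) and 337 to 5005 (iNS5). Against MEF it went from 3764 to 8616 (iNS2), 3906 to 8858 (iNS5) and 3553 to 8492 (NS). For NS and ES it went from 3319 to 8437. Testing the clones against a 2-fold change left 10 of 18 calls from MEF, and 1933 of 4912 over all genes. An offset of 50 left 9 of 15 for iNS3 and MEF, 7 of 12 for NS and MEF and 1 of 2 for iNS3 and iNS5, where median scaling, slide as a block and slide 4 alone also left 1. Over all genes that offset left 3079 of 3714 (iNS3 and MEF), 2918 of 3553 (NS and MEF) and 269 of 404 (iNS3 and iNS5). The calls between NS and MEF lost with that offset were Itga3, Itga6, Itga8, Lamb1 and Lamb2. For iNS5 and NS, slide as a block and slide 4 alone left 0 of 1. Why these counts moved was not tested, beyond the stricter or looser threshold itself. Leaving out 1 array at a time, the counts lay between 18 and 18 (clones and MEF), 0 and 0 (clones and NS), 19 and 19 (ES and MEF), 13 and 14 (iNS2 and MEF), 13 and 15 (iNS3 and MEF), 15 and 16 (iNS5 and MEF), 10 and 12 (NS and MEF), 8 and 9 (NS and ES), 0 and 1 (iNS2 and NS), 0 and 0 (iNS3 and NS), 1 and 1 (iNS5 and NS), 0 and 0 (iNS2 with iNS3 or iNS5) and 1 and 2 (iNS3 and iNS5). Median scaling moved the median of all genes against MEF to between 0.13 and 0.30. No paired analysis was possible because the labels give no replicate numbers. Dim probes have only a bound, lines other than the clones rest on 1 culture each as far as the labels tell, and the only line on a slide with iNS2 was iNS3.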
